A study of Sus scrofa with 24 samples.

Results

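The enzymes and carriers that take long-chain fatty acids into the mitochondria of skeletal muscle and break them down were followed in 24 pigs fed 4 dietary fats. They were 8 of the 6765 genes named on the array: HADHA, HADHB, ACADL, ACADVL, ACAA2, CPT1A, CPT1B and SLC25A20, chosen by symbol. Every probe set annotated with 1 of these symbols was taken, which gave 11 of the 23999 probe sets on the array that are not controls. HADHB had 3 probe sets, ACADVL had 2 and each other gene had 1. All 11 passed the filter on low signals, and no array gave any of them a signal below the filter value of 86.3.

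The samples were longissimus dorsi, the long muscle of the back, from Landrace × Large White × Duroc crossbred pigs, 1 Affymetrix array per pig. The fat was tallow from beef or oil of coconut, olive or soybean; it made up 3.0% of the feed and was given from a body weight of about 71 kg and an age of about 130 days. Each fat was given to 3 gilts (young females) and 3 barrows (castrated males), so that 6 pigs stood for each fat and 12 for each sex, and all pigs ate 1 of these fats. The study kept 72 pigs in 24 pens of 3, and which pens the sampled pigs came from is not known here. Pigs are named by the number in their sample titles, in which gilts run from 1 to 12 and barrows from 13 to 24. If samples were processed in that order, which is not known either, sex and processing order cannot be told apart.

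Long-chain fatty acids cross the inner mitochondrial membrane as carnitine esters. CPT1A, the form typical of liver, and CPT1B, the form typical of muscle, are alternative carnitine palmitoyltransferases of the outer membrane that make the ester, the step at which malonyl-CoA restrains oxidation. SLC25A20 is the carrier that exchanges the ester for free carnitine, and CPT2 turns it back into acyl-CoA. Each round of β-oxidation then starts with an acyl-CoA dehydrogenase, ACADVL for very long chains or ACADL for long chains. The trifunctional protein, with HADHA as its α subunit (hydratase and hydroxyacyl-CoA dehydrogenase) and HADHB as its β subunit (thiolase), completes the round for long chains, and ACAA2 is a further mitochondrial thiolase. HADHA and HADHB are next to each other among the protein-coding genes of the pig RefSeq annotation (Sscrofa11.1).

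The arrays were of like overall signal. The mean after trimming 2% at each end was between 500.1 and 500.2 on every array, array medians ranged from 139 to 174, and correlations between arrays from 0.863 to 0.967. The 3 arrays least correlated with the rest were those of pigs 12, 11 and 16, with mean correlations of 0.907, 0.925 and 0.927. The defining markers of skeletal muscle were bright on every array (muscle creatine kinase, CKM, from 36038 to 62769), and 3 of the 4 hepatocyte genes measured (ALB, APOB and TTR) lay below the filter. The fourth, APOA1, was above it, with signals from 574 to 3609.

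Barrows had lower signals than gilts for most of these genes. With limma, 5 of the 8 genes (HADHA, HADHB, ACADL, ACADVL and ACAA2) and 8 of the 11 probe sets were lower in barrows at an adjusted p under 0.05, against 4.77% of the 14399 tested probe sets called in either direction and 2.51% called lower. CPT1A, CPT1B and SLC25A20 had differences below 0 that did not pass. Those of CPT1A and CPT1B (−0.56 and −0.57) were as large as those of HADHB and ACADL (−0.55 and −0.53), with larger SEs. The median difference of the 8 genes was −0.56 on the log2 scale, against −0.02 over all tested probe sets. Over the whole array the calls were nearly balanced, 361 lower and 326 higher (52.5% lower); with each array centred on its median, 37.9% were lower. In bulk muscle, fewer cells of a type and less RNA per cell cannot be told apart.

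**Figure D1:**
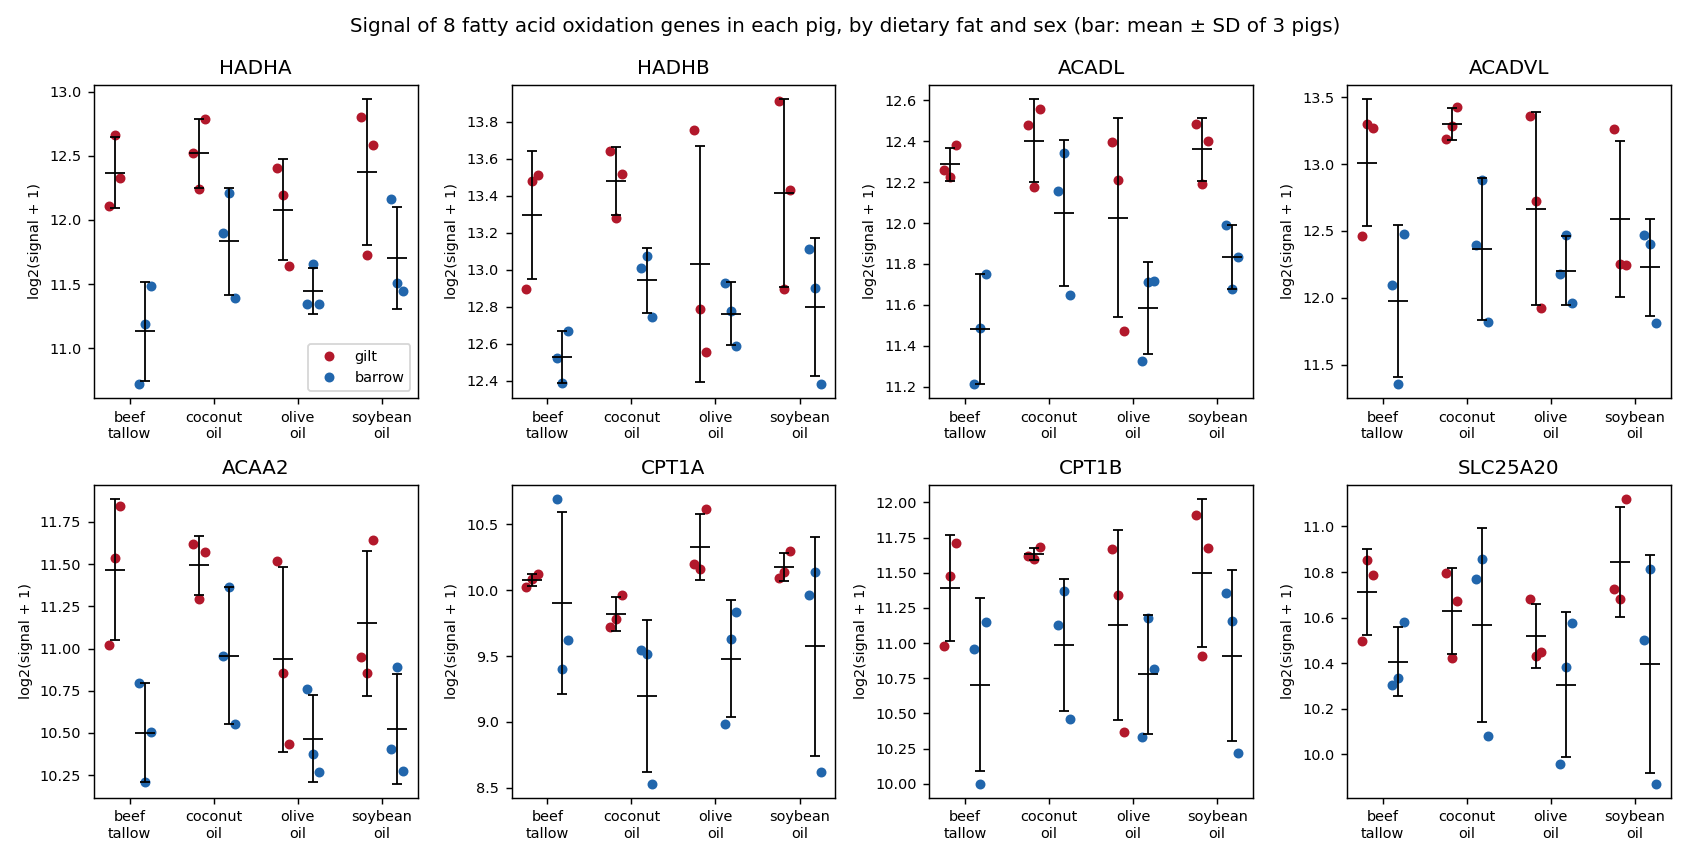
Log2(signal + 1) of each pig for the 8 genes (vertical axes), by dietary fat (horizontal axes) and sex (red, gilts; blue, barrows), with the mean and SD of 3 pigs in black. For a gene with several probe sets, the one with the highest mean is shown; the mean of the barrows lay below that of the gilts for all 8 genes in each of the 4 fats.

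HADHA had the smallest adjusted p of the 8 genes. Its signal ran from 3193 (pig 12) through a median of 5278 to 7153 (pig 3) in gilts. In barrows it ran from 1690 (pig 16) through a median of 2831 to 4743 (pig 20). All 12 barrows were below the gilts' mean, 8 barrows were below the lowest gilt, and 8 gilts were above the highest barrow. The difference was −0.80 ± 0.15 (SE, 12 pigs per sex; adjusted p 0.00483), a signal 1.75-fold higher in gilts. The group means of log2 signal were 12.33 ± 0.38 in gilts and 11.53 ± 0.41 in barrows (SD).

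HADHB, the partner subunit, was measured by 3 probe sets that correlated with each other at 0.938 to 0.946 over the 24 pigs. On the brightest, Ssc.23043.1.S1_at, gilts ran from 6017 (pig 12) through a median of 11238 to 15430 (pig 3). Barrows ran from 5346 (pig 19) through a median of 6940 to 8849 (pig 13). All 12 barrows were below the gilts' mean, and 3 of them were below the lowest gilt. The differences of the 3 probe sets were −0.55, −0.59 and −0.62, each with an SE of 0.14, and their adjusted p were 0.0318, 0.0233 and 0.0145. The call of Ssc.23043.1.S1_at was the least firm of these. It was lost on leaving out any 1 of 10 pigs (1, 3, 6, 8, 10, 14, 19, 21, 22 or 23), with adjusted p of up to 0.0626.

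ACADL, the long-chain dehydrogenase, had the narrowest spread of these genes, a residual SD of 0.27 within groups against a median of 0.32 over all tested probe sets. Gilts ran from 2843 (pig 12) through a median of 5113 to 6032 (pig 6). Barrows ran from 2373 (pig 16) through a median of 3358 to 5191 (pig 20). Pig 12 stood apart among the gilts: 11 of the 12 barrows were below the next lowest gilt, and 2 were below pig 12. The difference was −0.53 ± 0.11 (SE, 12 pigs per sex; adjusted p 0.0118).

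ACADVL, the dehydrogenase for very long chains, gave its largest difference on the dimmer of its 2 probe sets. On the brighter, Ssc.16637.1.S1_at, gilts ran from 3880 (pig 12) through a median of 9586 to 11033 (pig 6). Barrows ran from 2620 (pig 21) through a median of 5010 to 7528 (pig 20). The gilts fell into a low and a high set here, 5 of them at or below 6746 and 7 at or above 9336, and those 7 were above every barrow. On Ssc.21669.1.S1_at, barrows lay between 870 and 1503, and gilts between 864 (pig 12) and 4387 (pig 11), with 9 gilts above every barrow. Barrows varied little there (SD 0.23 on the log2 scale) and gilts widely (SD 0.76). The differences were −0.70 ± 0.19 and −0.96 ± 0.23 (SE; adjusted p 0.0354 and 0.019), and the 2 probe sets correlated at 0.759 over the pigs. The call of the brighter probe set was lost on leaving out any 1 of 13 pigs (3, 4, 5, 6, 8, 10, 14, 15, 17, 19, 21, 22 or 23), with adjusted p of 0.0514 to 0.0697.

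ACAA2, the thiolase, ran in gilts from 1380 (pig 12) through a median of 2721 to 3682 (pig 10). In barrows it ran from 1183 (pig 21) through a median of 1476 to 2633 (pig 20). Of the 12 barrows, 11 were below the gilts' mean, and the exception was pig 20. The difference was −0.65 ± 0.15 (SE, 12 pigs per sex; adjusted p 0.0156), a signal 1.57-fold higher in gilts.

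CPT1A did not pass between the sexes (−0.56 ± 0.18, SE; adjusted p 0.0774). Gilts were close together, from 841 (pig 1) through a median of 1104 to 1566 (pig 12), with an SD of 0.23 on the log2 scale. Barrows were spread from 369 (pig 23) through a median of 767 to 1654 (pig 16), with an SD of 0.61. Thus 8 of 12 barrows were below every gilt, and 1 barrow, pig 16, was above every gilt. Without pig 16 the difference was −0.66 and passed (adjusted p 0.0317). Pig 16 is among the 3 arrays least correlated with the rest.

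CPT1B, the muscle form, did not pass either (−0.57 ± 0.19, SE; adjusted p 0.0885). Gilts ran from 1322 (pig 12) through a median of 3122 to 3858 (pig 3). Barrows ran from 1024 (pig 21) through a median of 2113 to 2643 (pig 20), all 12 below the gilts' mean. Without pig 12 or without pig 9 the adjusted p fell under 0.05, to as little as 0.0437.

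SLC25A20, the carrier, had the smallest difference between the sexes, −0.26 ± 0.12 (SE; adjusted p 0.221). Gilts ran from 1371 (pig 5) through a median of 1643 to 2226 (pig 11), and barrows from 936 (pig 19) through a median of 1392 to 1856 (pig 20). Of the 12 barrows, 9 were below the gilts' mean. The 95% interval of the difference was −0.51 to −0.01.

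**Figure D2:**
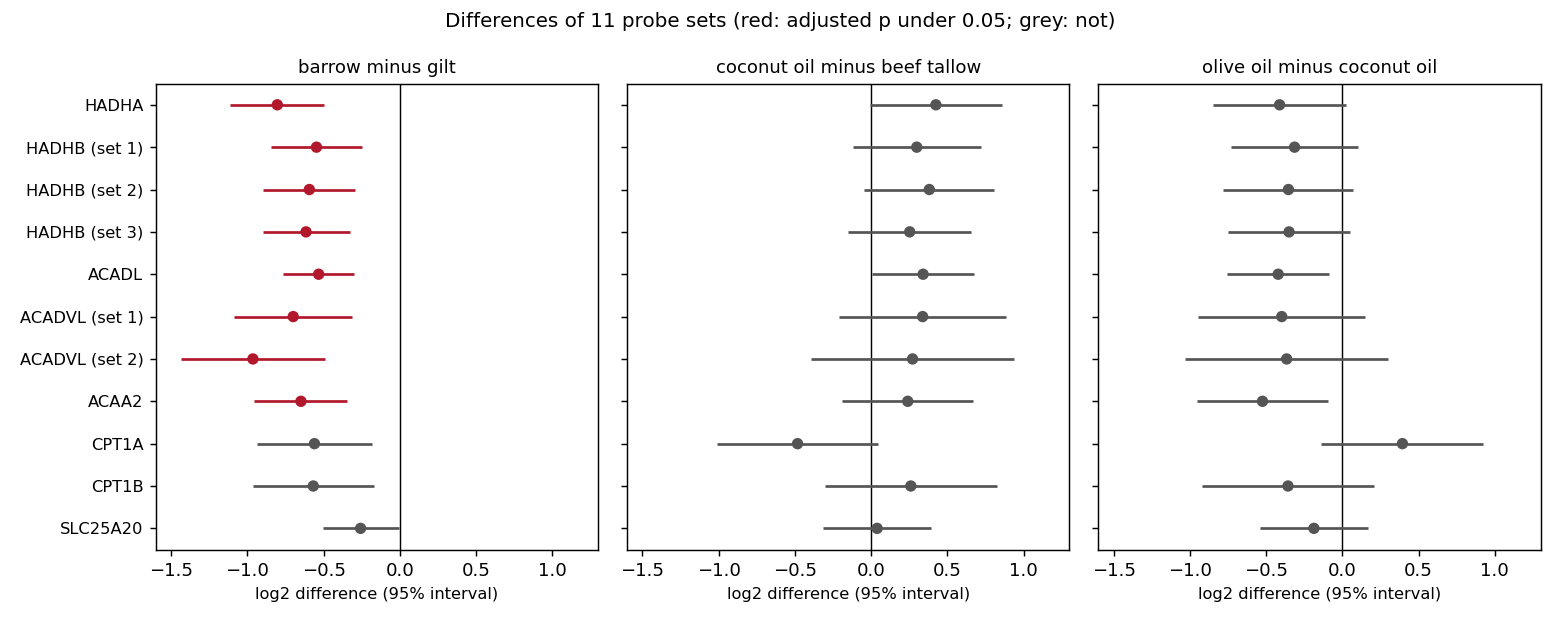
Differences on the log2 scale (horizontal axes, points with 95% intervals) of the 11 probe sets (vertical axis) for barrow minus gilt, coconut oil minus beef tallow and olive oil minus coconut oil, red where the adjusted p was under 0.05. All 8 calls are in the left panel, between −0.53 and −0.96; in the 2 fat panels CPT1A is the 1 probe set on the other side of 0.

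Each of the 11 probe sets had a lower mean in barrows in each of the 4 fats. The median difference of the 11 was −0.97 on beef tallow, −0.59 on coconut, −0.44 on olive and −0.60 on soybean oil. All 3 barrows were below all 3 gilts for 6 of 11 probe sets on beef tallow (5.34% of all tested probe sets), 8 on coconut (10.4%), 1 on olive (9.2%) and 1 on soybean oil (7.46%). The test of whether the sex difference itself varied with the fat called none of the 11 (limma's F test of the interaction; smallest adjusted p 0.809, 0 of 11 at an unadjusted p under 0.05), against 0% of all tested probe sets. No probe set of the 11 had all 12 barrows below all 12 gilts, which 0.0486% of the tested probe sets had, and 7 of 11 had all 12 barrows below the gilts' mean, which 2.05% had.

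HADHA showed the widest sex difference within a fat of any of the genes' brightest probe sets. With beef tallow, gilts had 4426, 5136 and 6488 and barrows 1690, 2333 and 2870. With olive oil, gilts had 3193, 4679 and 5419 and barrows 2598, 2602 and 3226. The groups were apart with beef tallow, and overlapped with olive oil through pig 12, the lowest gilt, and pig 18, the highest barrow. The differences were −1.23 with beef tallow and −0.63 with olive oil.

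No gene of the 8 was called in any comparison of fats. In the test over the 4 fats, 0 of 11 probe sets passed with limma (0 at an unadjusted p under 0.05; smallest adjusted p 0.442, ACADL), as did 0% of the whole array. Between coconut oil and beef tallow, 0 of 11 passed (1 at an unadjusted p under 0.05), where 1.12% of the tested probe sets did. In that comparison 124 of 161 calls over the array were lower with coconut oil (77%); with each array centred on its median, which moves the median of all probe sets by 0.13, 38.4% were lower. The other 5 pairs of fats called 0 of 11 and 0% of the tested probe sets, with 2 of 11 at an unadjusted p under 0.05 for olive oil minus coconut oil and 0 of 11 for the others.

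Most of the genes still shared the fat with the highest mean, while the order of the other fats varied between genes. Coconut oil had the highest mean of the 4 fats for 9 of 11 probe sets, all but those of CPT1A and SLC25A20. For coconut oil minus beef tallow the 8 genes' median difference was 0.28, against −0.04 over all tested probe sets. Olive oil minus coconut oil had −0.38, against −0.01. It was −0.08 for olive oil minus beef tallow, 0.11 for soybean oil minus beef tallow, −0.12 for soybean oil minus coconut oil and 0.21 for soybean oil minus olive oil. Leaving out 1 pig moved these medians by over 1.5 times: soybean oil minus beef tallow ran from 0.01 to 0.20 and soybean oil minus olive oil from 0.08 to 0.32. These comparisons share pigs, so they are not separate measurements. For coconut oil minus beef tallow, 14 of 15 tested genes of the tricarboxylic acid cycle and 7 of 9 of the respiratory chain were also above 0. The medians of those lists were 0.20 and 0.20. Between coconut oil and beef tallow, 1 of 5 tested adipocyte markers and 5 of 7 tested fibroblast and matrix markers were called lower with coconut oil. Summed adipocyte marker signals ranged from 6056 to 10490 with coconut oil and from 7720 to 34130 with beef tallow, and summed fibroblast and matrix markers from 20980 to 28490 and from 26190 to 68330. Their part in the fat differences of the 8 genes was not tested.

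HADHA ran from 1690 through a median of 3648 to 6488 with beef tallow and from 2681 through a median of 4797 to 7062 with coconut oil. With olive oil it ran from 2598 through a median of 3209 to 5419, and with soybean oil from 2792 through a median of 3988 to 7153. The 4 ranges overlapped over most of their length. Coconut oil minus beef tallow was 0.43 ± 0.21 (SE, 6 pigs per fat; adjusted p 0.264). In barrows alone it was 0.70 ± 0.30 (3 pigs per fat; adjusted p 0.183) and in gilts alone 0.15 ± 0.30 (adjusted p 0.989). Both SEs rest on 1 spread pooled over the 8 groups of fat and sex. Neither difference passed, and 2.07% of the tested probe sets passed in barrows and 0% in gilts.

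ACADL had its highest mean with coconut oil (12.23 ± 0.32 on the log2 scale, SD, n = 6), followed by soybean oil (12.10 ± 0.32), beef tallow (11.89 ± 0.48) and olive oil (11.81 ± 0.42). Neighbours in this order differed by less than their SDs, which include the difference between gilts and barrows. Signals ran from 3212 through a median of 4907 to 6032 with coconut oil and from 2565 through a median of 3358 to 5393 with olive oil. Olive oil minus coconut oil was −0.42 ± 0.16 (SE; adjusted p 0.554), with 5 of 6 pigs on olive oil below the mean of those on coconut oil. Coconut oil minus beef tallow was 0.34 ± 0.16 (adjusted p 0.238).

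ACAA2 spanned the widest range of fat means of the 11 probe sets, 0.52 from coconut oil (11.23 ± 0.41, SD, n = 6) to olive oil (10.70 ± 0.46). Its signals ran from 1501 through a median of 2571 to 3144 with coconut oil and from 1232 through a median of 1556 to 2933 with olive oil. Pig 4, a gilt, was the 1 pig on olive oil above the mean of the pigs on coconut oil. The difference was −0.52 ± 0.21 (SE; adjusted p 0.554).

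HADHB, ACADVL and CPT1B had coconut oil minus beef tallow differences of 0.30 ± 0.20, 0.34 ± 0.26 and 0.26 ± 0.27 (SE; adjusted p 0.424, 0.498 and 0.626). For HADHB and ACADVL these are the values of the brighter or brightest probe set. The second-ranked fat was soybean oil for HADHB and CPT1B. The 2 probe sets of ACADVL ranked the fats differently below coconut oil: the brighter had beef tallow second and soybean oil last, the dimmer soybean oil second and olive oil last. Soybean oil minus coconut oil was −0.42 ± 0.26 on the brighter (adjusted p 0.492) and −0.15 ± 0.32 on the dimmer (adjusted p 0.877). Each of these intervals includes 0 and differences near those seen between the sexes.

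CPT1A had the reverse order of coconut oil and beef tallow. Its mean was highest with beef tallow (9.99 ± 0.45, SD, n = 6), then olive oil (9.90 ± 0.56), soybean oil (9.88 ± 0.62) and coconut oil (9.51 ± 0.51). Signals ran from 675 through a median of 1062 to 1654 with beef tallow and from 369 through a median of 794 to 997 with coconut oil. All 6 pigs on coconut oil were below the mean of those on beef tallow. In gilts, the 3 on coconut oil had 841, 878 and 997 and the 3 on beef tallow had 1042, 1083 and 1114. In barrows, coconut oil gave 369, 731 and 747, and beef tallow 675, 787 and 1654. With limma the difference was −0.26 ± 0.36 in gilts and −0.71 ± 0.36 in barrows (SE, 3 pigs per fat). Neither passed (adjusted p 0.984 and 0.267). The difference over both sexes was −0.48 ± 0.25 (SE; adjusted p 0.296). Without pig 16, the barrow with 1654, it was −0.29 (adjusted p 0.574).

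SLC25A20 differed least between fats. Its means lay between 10.41 ± 0.25 on olive oil and 10.62 ± 0.42 on soybean oil (n = 6, SD), and were 10.56 ± 0.23 on tallow and 10.60 ± 0.30 on coconut oil. Coconut oil minus beef tallow was 0.04 ± 0.17 (SE; adjusted p 0.921), with a 95% interval from −0.31 to 0.39.

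Of the 8 genes, 7 varied together from pig to pig, and CPT1A followed them less closely. Each gene's log2 signal was centred on its mean over the 24 pigs and the 8 values of a pig were averaged. Gilts had a mean of 0.29 ± 0.28 (SD, n = 12), from −0.31 in pig 12 to 0.53 in pig 6. Barrows had −0.29 ± 0.29, from −0.70 in pig 21 to 0.21 in pig 20. Pigs 3, 4, 6, 8 and 10, all gilts, were above the mean in 8 of 8 genes, and pigs 17, 19, 21 and 23, all barrows, in 0 of 8. Each sex had a pig that resembled the other sex: pig 12, an olive oil gilt, was above the mean only for CPT1A (1 of 8), and pig 20, a coconut oil barrow, was above it in 7 of 8. By fat, the means were −0.04 ± 0.47 for beef tallow, 0.14 ± 0.41 for coconut oil, −0.13 ± 0.37 for olive oil and 0.03 ± 0.43 for soybean oil (SD, n = 6). The SD within a fat, which includes the difference between its gilts and barrows, exceeded every difference between fats.

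**Figure D3:**
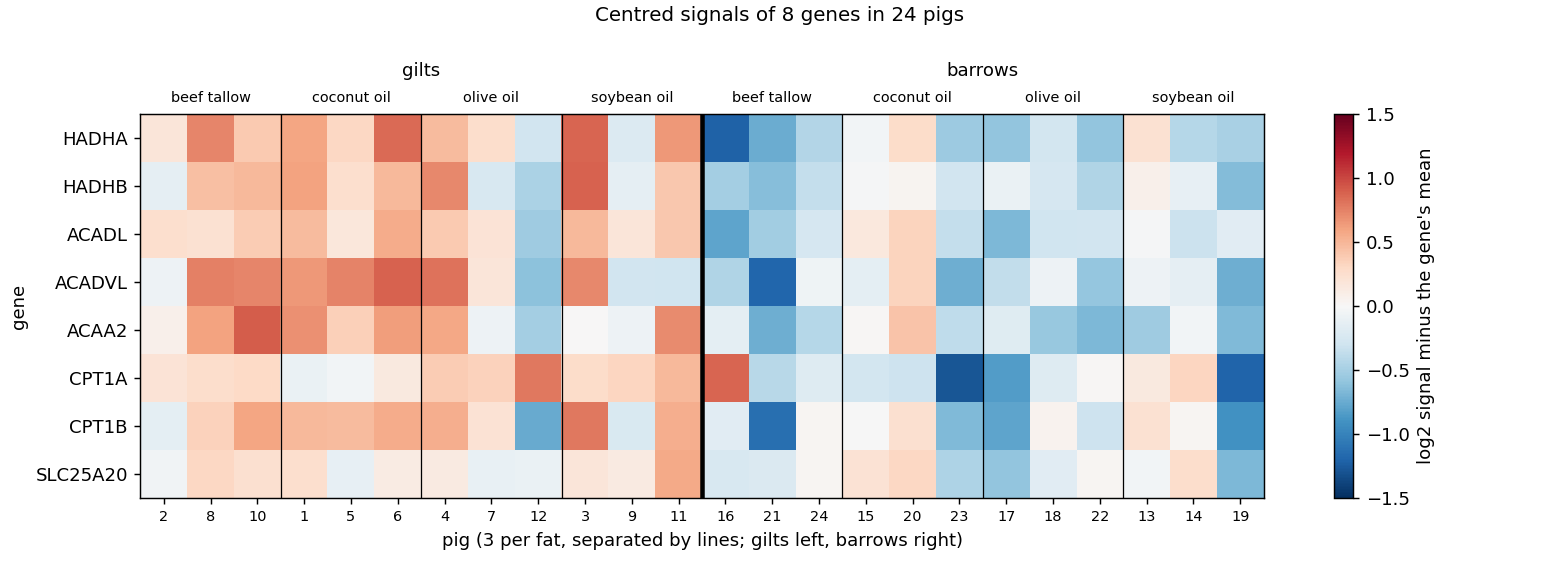
Log2 signal of each of the 8 genes (rows) minus the gene's mean over the 24 pigs (colour, log2 units), for each pig (columns, gilts left of the thick line, barrows right, 3 pigs per fat between thin lines). Most gilt columns are red and most barrow columns blue; pig 12 among gilts and pig 20 among barrows differ from their sex, and CPT1A in pigs 12 and 16 differs from the other 7 genes.

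The closest pairs were HADHA with ACADL (Pearson r 0.922 over 24 pigs), ACADVL with CPT1B (0.883) and HADHA with HADHB (0.876). The 21 pairs without CPT1A had correlations from 0.521 to 0.922 with a median of 0.786. The 7 pairs with CPT1A ran from 0.21 to 0.59, with a median of 0.331. Without the 3 least correlated arrays (pigs 11, 12 and 16) the medians were 0.81 and 0.588 over 21 pigs. On deviations from the 8 group means, so without the mean differences between sexes and fats, the medians were 0.633 and 0.281. There the pairs without CPT1A ran from 0.40 to 0.88, and those with CPT1A from 0.03 to 0.67. These correlations describe values that share an array and its scaling.

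**Figure D4:**
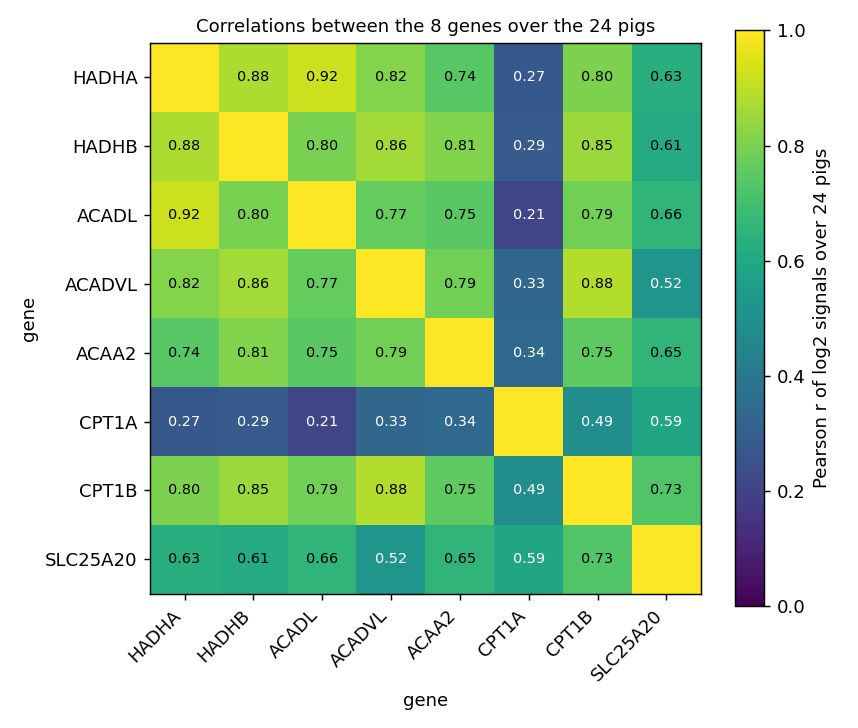
Pearson correlation (colour and number) of log2 signals over the 24 pigs for each pair of the 8 genes (both axes). The HADHA and ACADL cell is the highest at 0.92, and the CPT1A row and column hold the lowest values, down to 0.21.

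Among 5337 other genes, those most like each of the 8 over the 24 pigs were ranked by Pearson r. HADHA was closest to HSDL2 (0.913) and ME3 (0.908), and ACADL to the same pair (0.906 and 0.838). HSDL2 is a hydroxysteroid dehydrogenase-like protein, and ME3 is the mitochondrial NADP-dependent malic enzyme. HADHB was closest to GSTK1 (0.932), a glutathione transferase, and ACADS (0.894), the short-chain acyl-CoA dehydrogenase. ACADVL was closest to ETFB (0.89), a subunit of the flavoprotein that takes electrons from the acyl-CoA dehydrogenases, and SLC41A1 (0.838), a magnesium transporter. ACAA2 was closest to FABP3 (0.818), the fatty acid binding protein of muscle, and ACOT6 (0.801), an acyl-CoA thioesterase. CPT1B was closest to VDAC3 (0.85), a channel of the outer mitochondrial membrane, and GSTK1 (0.836). SLC25A20 had the lowest best match, KLF11 (0.747), a transcription factor, then ACOT6 (0.74). CPT1A was closest to C4A (0.822), a complement component, and COPRS (0.796). The matches of CPT1A, like those of ACADVL, were not among the 2 closest of any other of the 8 genes.

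Other genes of mitochondrial fatty acid oxidation were mostly below 0 between the sexes without passing. Of 22 listed, 18 had a probe set and 16 passed the filter. None passed the test with limma between the sexes, 8 had an unadjusted p under 0.05, 13 had differences below 0, and the median was −0.24. The smallest p were those of ACADS (−0.37 ± 0.12, SE; adjusted p 0.0661) and ETFB (−0.39 ± 0.12; adjusted p 0.0719). HADH, the dehydrogenase for short and medium chains, had −0.22 ± 0.10 and ETFDH, which passes the electrons to ubiquinone, −0.27 ± 0.11 (adjusted p 0.2 and 0.148). ACADM, the medium-chain dehydrogenase, was level (−0.01 ± 0.10), as was ACSL1, which activates long-chain fatty acids (0.00 ± 0.14). CPT2 lay below the filter, with signals from 12.2 to 104 and medians of 52.7 in gilts and 40.9 in barrows, and was not tested.

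Between fats, none of the 16 passed in any of the 6 pairs, with 0 to 3 at an unadjusted p under 0.05. The smallest p over the 4 fats were those of ACSL1 (adjusted p 0.478) and CRAT, carnitine acetyltransferase (adjusted p 0.482). For coconut oil minus beef tallow, ACSL1 had 0.45 ± 0.20 and CRAT 0.50 ± 0.18 (SE; adjusted p 0.217 and 0.133), with 6 of 6 pigs on coconut oil above the beef tallow mean for both genes. The median of the 16 genes in that comparison was 0.17, beside 0.28 for the 8 genes. Of 6 tested genes of peroxisomal oxidation, which shortens very long chains outside the mitochondrion, none passed between the sexes (1 at an unadjusted p under 0.05; median −0.03) or in any pair of fats (0 to 2).

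Of 16 listed regulators of fatty acid oxidation and genes of fatty acid supply, 10 were tested, and 3 were lower in barrows. FABP3, which binds fatty acids in muscle, fell by 0.96 on the log2 scale (SE 0.19; adjusted p 0.0088). ANGPTL4, an inhibitor of lipoprotein lipase, fell by 1.09 (SE 0.27; adjusted p 0.023), and LPL, the lipase that frees fatty acids from lipoproteins, by 0.59 (SE 0.14; adjusted p 0.0235). Without pigs 11, 12 and 16 the calls of ANGPTL4 and LPL were lost (adjusted p 0.0661 and 0.102), and that of FABP3 was kept. PDK4, which restrains glucose oxidation, had −0.33 ± 0.14 and UCP3, a mitochondrial carrier of muscle, 0.62 ± 0.25 (adjusted p 0.181 and 0.16). PPARGC1A, a coactivator of mitochondrial genes, had 0.11 ± 0.31 (adjusted p 0.879). Over the fats the smallest p were those of PPARG and PPARGC1A (adjusted p 0.271 and 0.326); PPARGC1A had 1.55 ± 0.44 for coconut oil minus beef tallow, which did not pass (adjusted p 0.0708).

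The tricarboxylic acid cycle and the respiratory chain take up the products of β-oxidation, and their medians lay near 0 between the sexes. Of 15 tested genes of the tricarboxylic acid cycle, 6 had differences below 0 and the median was 0.07. SUCLA2, a subunit of succinyl-CoA ligase, was higher in barrows (0.31 ± 0.09, SE; adjusted p 0.0436), a call lost on leaving out any 1 of 17 pigs (up to an adjusted p of 0.0846) and without pigs 11, 12 and 16 (0.114). Of 22 listed genes of the respiratory chain and ATP synthase, 9 were tested, and no listed ATP synthase gene was measured. The 9 were NDUFA9, NDUFB5, NDUFB8, NDUFS1, NDUFS3, NDUFV1, COX5B, COX7A1 and CYCS. None of them passed (1 at an unadjusted p under 0.05), and their median was 0.00. Differences between lists were not tested.

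**Figure D5:**
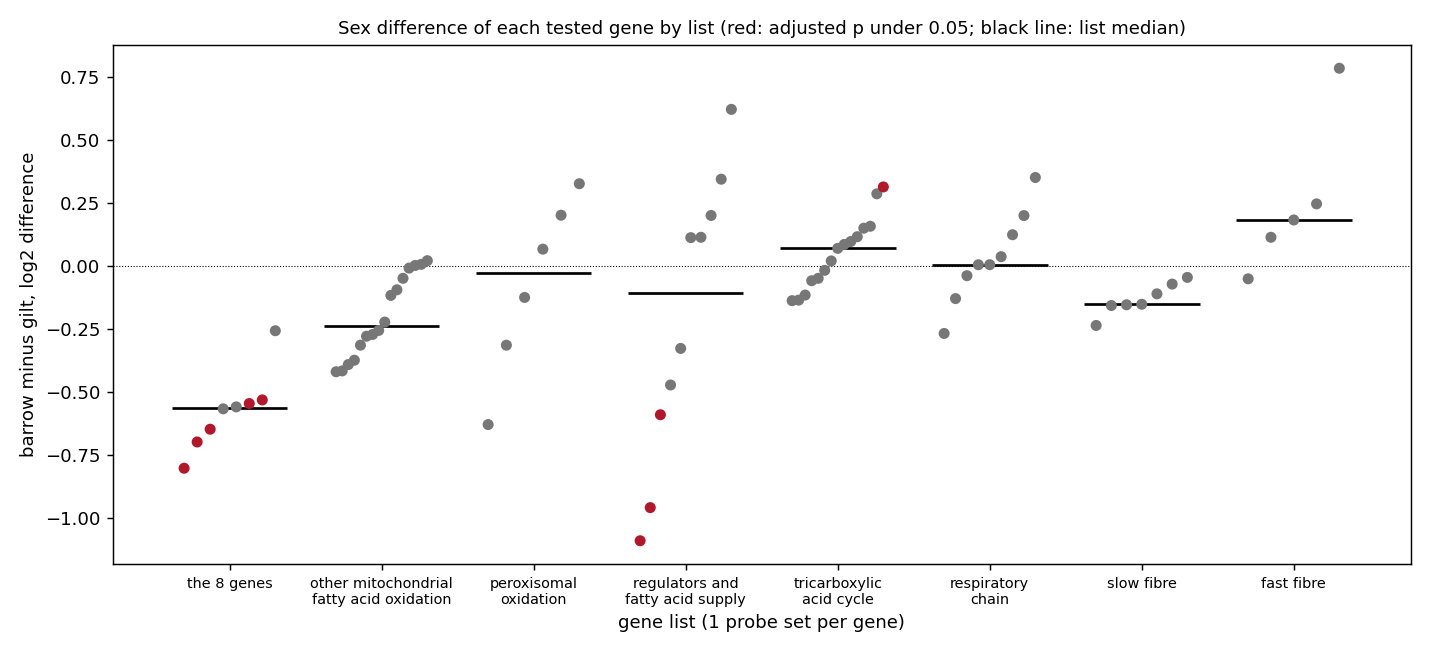
Barrow minus gilt difference on the log2 scale (vertical axis) of each tested gene, grouped by list (horizontal axis), with list medians as black lines and red points where the adjusted p was under 0.05. The 8 genes lie between −0.80 and −0.26 with a median of −0.56, the other mitochondrial fatty acid oxidation genes have a median of −0.24, and the tricarboxylic acid cycle and respiratory chain lists have medians of 0.07 and 0.00.

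Markers of fibre type and of other cells were set beside the sex difference. All 7 tested markers of slow, oxidative fibres had differences below 0, none passed (0 of 7 at an unadjusted p under 0.05), and their median was −0.15. Their summed signals ranged from 166200 to 310600 in gilts (median 266700) and from 178400 to 273700 in barrows (median 235400). The 5 fast fibre markers had a median of 0.18 and the skeletal muscle markers −0.05, with no calls in either list (2 of 5 and 0 of 6 at an unadjusted p under 0.05). The 5 tested adipocyte markers had a median of −0.51 and none passed (2 at an unadjusted p under 0.05; smallest adjusted p 0.0531). Their summed signals ranged from 7715 to 35820 in gilts (median 15550) and from 6056 to 25610 in barrows (median 10580). The part of these markers in the sex difference of the 8 genes was not tested. Without the arrays of pigs 11, 12 and 16, the brightest probe sets of HADHA, HADHB, ACADL, ACADVL and ACAA2 stayed called lower in barrows. How many probe sets were called over the array in that fit is not given here.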

How the data were processed

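Total RNA of 24 muscle samples was measured on 1-colour arrays. The authors deposited 1 linear intensity per probe set and array. The labels name no summarisation algorithm; the equal trimmed means show scaling to a common level. Signals were turned into log2(signal + 1). Probe sets at or above the 40th percentile of mean log2 signal were tested, 14399 of 23999, by fitting 8 group means (lmFit, eBayes; residual df 16) in limma 3.58.1 under R 4.3.3. The tests were two-sided, with Benjamini-Hochberg adjustment over all tested probe sets and a threshold of 0.05. Symbols of the 8 genes came from the array's annotation. For all other genes the RefSeq symbol of the same gene identifier was used where RefSeq named the gene, and otherwise the array's symbol. A gene's main probe set is the one with the highest mean. On simulated data, the barrow minus gilt test recovered 42% of 100 changes of 0.5 and 85% of 100 changes of 1 on the log2 scale.

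The genes, lists and tests were chosen with earlier results of these data known. Named were all probe sets of the 8 genes, list genes past the threshold (at most 4 per list and comparison), CPT2, ACADM, HADH, ETFDH, ACSL1, PPARGC1A, PDK4 and UCP3, the 2 smallest p of the 2 oxidation lists over the fats and between the sexes, and the 2 genes most like each of the 8. Marker lists are given by counts. Pigs were treated as independent, so p-values leave out pens. Precision is limited by how many pigs were measured, since arrays hold no counts. Alternatives were other filters, normalizations, a pseudocount of 16, an additive model, trended and robust spread, array weights, the mean of a gene's probe sets, and pigs left out. No sequences were used here.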

Additional observations from a re-analysis of the deposited data

Results flagged for a closer look

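In 3 of 44 groups of 6 pigs (11 probe sets in 4 fats), 1 pig stood apart from the other 5 by Dixon's ratio. The ratio is the gap to the nearest pig over the group's range. Chance would give about 2.2 such groups if each group were 1 uniform sample. Each group mixes gilts and barrows, so that number is only a rough guide. HADHB (Ssc.23043.1.S1_at) with olive oil had pig 4, a gilt, at 13820 with the next pig at 7797 (ratio 0.688). CPT1A with coconut oil had pig 23, a barrow, at 369.2 with the next at 730.5 (ratio 0.687). CPT1A with soybean oil had pig 19, a barrow, at 392.7 with the next at 996.5 (ratio 0.799).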

How the results depend on the processing

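The direction of every difference of the 8 genes between the sexes was kept under all alternatives and on leaving out each pig. The number of the 11 probe sets called between barrows and gilts was 8, with 687 called over the array. It was 4 with no signal filter, which tests more probe sets (302 called over the array). On leaving out 1 pig it ranged from 6 to 9, while calls over the array ran from 386 (without pig 14) to 1059 (without pig 7). HADHA, ACADL and ACAA2 stayed called in all 24 fits without 1 pig, with adjusted p of up to 0.0122, 0.026 and 0.033. They also stayed called in all 10 other settings. The main probe sets of HADHB and ACADVL lost their calls with no filter (adjusted p 0.0781 and 0.0871). They lost them too with arrays centred on their median (0.0515 and 0.0565; the cause was not tested). The dimmer probe sets of these genes were not followed singly here. The 4 called with no filter include a dimmer probe set of HADHB or ACADVL, since only HADHA, ACADL and ACAA2 kept the call of their main probe set. CPT1A and CPT1B were called with array weights (0.0432 and 0.0173). ANGPTL4, LPL and SUCLA2, whose alternatives were chosen after seeing the data, lost theirs with no filter (0.0626, 0.0616 and 0.0938). No fat comparison called any of the 11 under any setting. The median of the 8 genes changed sign without 1 pig for olive oil minus beef tallow (−0.19 to 0.08) and soybean oil minus coconut oil (−0.23 to 0.02); it ran from 0.17 to 0.37 for coconut oil minus beef tallow, from −0.50 to −0.20 for olive oil minus coconut oil, from 0.01 to 0.20 for soybean oil minus beef tallow and from 0.08 to 0.32 for soybean oil minus olive oil. On simulated data the barrow minus gilt test recovered 42% of changes of 0.5, so smaller differences between the sexes can be missed with these 24 pigs. The simulation changed 100 probe sets by each size, where the data had 687 called, so recovery in the data can differ. Changes between fats, with 6 pigs per fat, were not simulated.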
